A study of Mus musculus with 41 samples.

Results

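Matrix metalloproteinases (Mmps) are zinc-dependent proteases that cut collagens, elastin, laminins and other proteins of the extracellular matrix, and tissue inhibitors of metalloproteinases (Timps) block them. Most Mmps are secreted as inactive precursors and opened by other proteases, so their activity depends on transcription, on activation and on the inhibitors present. In the lung these enzymes are known from inflammation, emphysema and repair, where alveolar macrophages, neutrophils, fibroblasts and epithelial cells can all release them. The group described here holds 10 genes, Mmp2, Mmp3, Mmp8, Mmp9, Mmp12, Mmp13, Mmp14, Mmp19, Timp1 and Timp3. Spots were taken by gene name, and the genes were chosen with earlier results of these data known, so counts of members are descriptions. They were read by 14 of the 41174 probes on the mRNA arrays, which carry 27962 gene names in all.

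Female C57BL/6 mice (C57BL/6BomTac in the study's methods) inhaled nano-sized titanium dioxide (nanoTiO2), 40 mg/m3 for 1 h per day over 11 days, or filtered air, and were killed 5 days after the last day. The mice had been paired for breeding but had not become pregnant. RNA came from a random piece of the left lung and from the liver, so that whole tissue with all of its cell types was measured. There were 7 exposed and 6 control lungs, and 7 exposed and 8 control livers. The labels give the age of these mice only as a gestation-day equivalent, and 11 to 13 weeks for the microRNA arrays of the series, which were not used here. Each array paired the tissue RNA in the red dye (Cy5) with the same reference RNA in the green dye (Cy3), pooled from 11 mouse cell lines. Every value below is the log2 ratio of tissue to reference unless stated otherwise. Ratios were normalized within each array, so 0 is the typical ratio of spots of like intensity and not an amount equal to the pool. A value can be read against the pool only where both channels are above background. No dyes were swapped. Between 55.09 and 70.5% of the spots on an array were well above background in Cy5, and replicate arrays of a group correlated with each other at 0.962 to 0.988 across probes. Exposed samples always lay at the first pair of positions on a slide and controls at the other, so position and exposure cannot be told apart. P-values measure the spread between mice, with 1 array for each mouse and tissue.

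Exposure moved 2 members in the lung, and both rose. Mmp12, the macrophage elastase, and Timp1, a secreted inhibitor that is known to be induced in inflamed tissue, passed the threshold of an adjusted p of 0.05 in the limma fit over all probes. Over all 41155 probes tested, 0.202% passed in either direction and 0.18% upward. In the liver no member passed, where 0% of the 41143 probes did.

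The probe sequences are shown because both calls rest on them. They are given as the array's annotation lists them. The Mmp12 probe matches mouse genome build mm7 at chr9:7352125-7352640, where 516 bases of the genome for a 60-base probe show that the match crosses an intron. The Timp1 probes lie on chromosome X of the same build. Probe 1 lies at chrX:19307699-19307758, probe 2 at chrX:19305929-19305988, and probe 3 at chrX:19305989-19306238, where its match also crosses an intron.
Mmp12: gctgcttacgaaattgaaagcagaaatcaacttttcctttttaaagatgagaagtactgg
Timp1 probe 1: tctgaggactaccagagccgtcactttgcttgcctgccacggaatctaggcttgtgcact
Timp1 probe 2: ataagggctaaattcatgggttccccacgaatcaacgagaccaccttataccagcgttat
Timp1 probe 3: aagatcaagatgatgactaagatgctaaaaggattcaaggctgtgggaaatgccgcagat
Where a gene has several probes, they are numbered here from the brightest to the dimmest in Cy5. Probes of 4 members, Mmp13, Mmp12, Mmp3 and Mmp8, lie in 1 stretch of 286 kb on chromosome 9.

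Mmp12 read 0.33 in the lowest exposed lung, 0.46 at the median and 0.97 in the highest, and -0.22, -0.15 and -0.02 in the control lungs. All 7 exposed lungs lay above all 6 controls. The probe was well above background on all 7 exposed arrays and on none of the 6 control arrays. The size of the change is therefore not exact. In the Cy5 channel the mean log2 intensities of Mmp12 were 6.76 in exposed and 6.05 in control lungs. A Cy5 fold of 1.63 was found after a floor was set for the controls. That floor raised each control value to at least the lowest intensity well above background on its array. The log2 ratio gave 1.59-fold, so these folds are estimates that depend on the setting. The difference in log2 ratio was 0.67 ± 0.09 (SE; adjusted p = 0.00175, limma), and the exact two-sided permutation test gave p = 0.000583, the smallest that the 1716 splits of 7 and 6 arrays allow. Within the 3 slides that held both groups the difference was 0.46, 0.5 and 0.9. The scanner software's own background-subtracted signals gave 2.71 (adjusted p = 0.00012), the call was lost with the background model fitted on all spots (0.5, adjusted p = 0.624) and with median centering (0.76, adjusted p = 0.115, all limma).

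Timp1 read -1.84, -1.73 and -1.1 (lowest, median and highest) in exposed lungs at probe 1, and -2.71, -2.42 and -2.26 in controls. Here too all exposed lungs lay above all controls, and the highest, mouse 20, stood away from the other 6, which ended at -1.63. The difference was 0.77 ± 0.11 (SE), 1.71-fold (adjusted p = 0.00341, limma; exact permutation p = 0.000583). Without mouse 20 it was 0.68 (adjusted p = 0.000263). The other probes gave smaller differences, 0.28 ± 0.06 at probe 2 (adjusted p = 0.0603, limma) and 0.38 ± 0.08 at probe 3 (adjusted p = 0.0753, limma), again with no overlap between the groups. At probe 2 the groups nearly touched, with the lowest exposed and the highest control lung both at -1.63 after rounding. Within slides probe 1 differed by 0.61, 0.68 and 0.73. The remaining lung slide held only exposed mice, 20 and 23. With the slide as a fixed block the difference at probe 1 was 0.67 (adjusted p = 0.0155, limma). The call at probe 1 was lost with median centering (0.84, adjusted p = 1, limma).

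**Figure D1:**
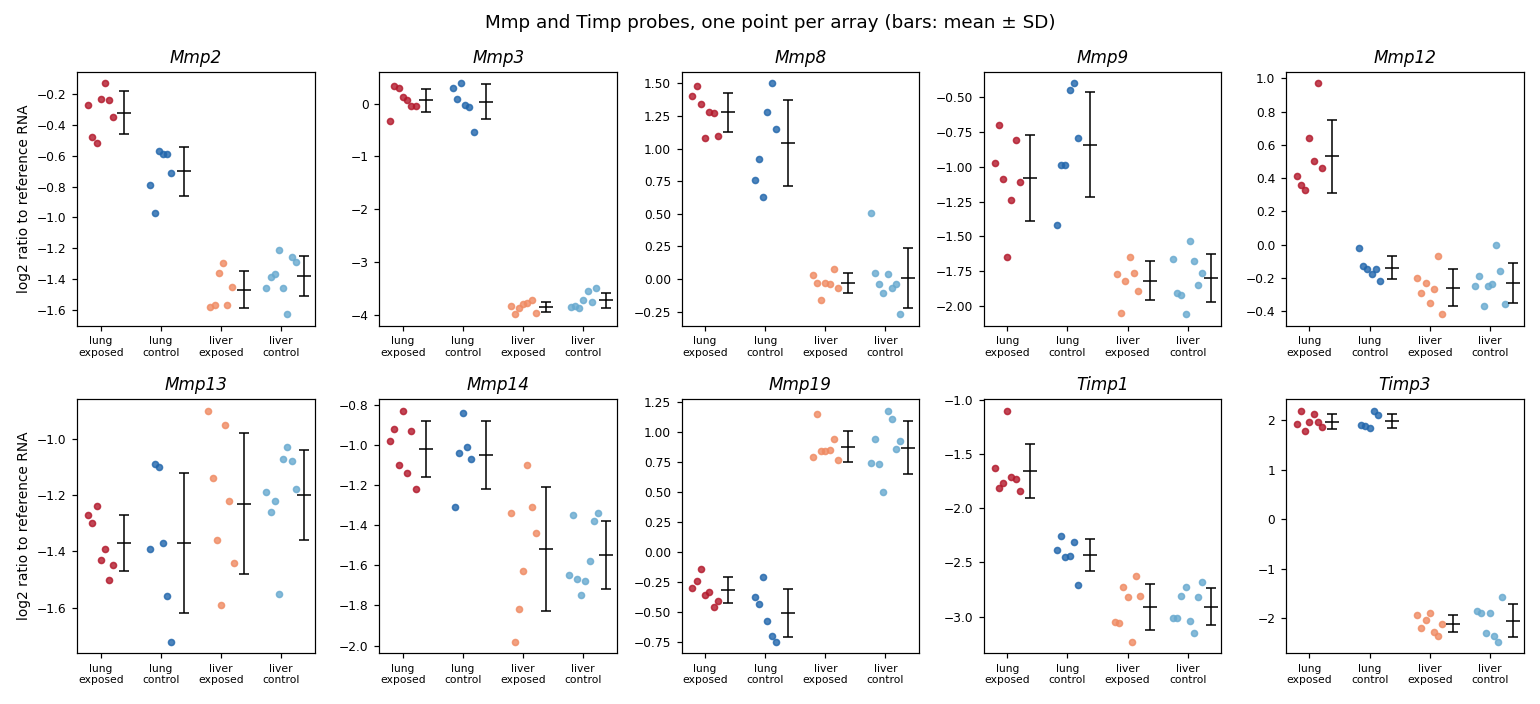
Log2 ratio of tissue to reference RNA (vertical axis, a scale of its own in each panel) for the brightest probe of each gene, with 1 point per array and the mean ± SD beside each group. In Mmp12 and Timp1 the exposed lungs sit above all control lungs, at 0.33 to 0.97 and -1.84 to -1.1, while Mmp3 and Timp3 separate lung from liver and not exposed from control.

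Upstream sequence of both genes is shown because both rose, from RefSeq on build GRCm38.p6, as the 250 bases before a listed start. Capitals mark matches on either strand to AP-1 (TGANTCA), PEA3 (AGGAAG) or a TATA box (TATAAA), motifs known from Mmp promoters. RefSeq lists 2 starts for Mmp12, with windows at chr9:7344147-7344396 and chr9:7347124-7347373, and 1 for Timp1, at chrX:20869916-20870165, all on the plus strand.
Mmp12 start 1: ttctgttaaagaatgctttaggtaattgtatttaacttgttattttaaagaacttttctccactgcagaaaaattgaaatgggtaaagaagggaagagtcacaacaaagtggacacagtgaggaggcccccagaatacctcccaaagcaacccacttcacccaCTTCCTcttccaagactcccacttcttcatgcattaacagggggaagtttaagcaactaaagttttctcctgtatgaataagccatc
Mmp12 start 2: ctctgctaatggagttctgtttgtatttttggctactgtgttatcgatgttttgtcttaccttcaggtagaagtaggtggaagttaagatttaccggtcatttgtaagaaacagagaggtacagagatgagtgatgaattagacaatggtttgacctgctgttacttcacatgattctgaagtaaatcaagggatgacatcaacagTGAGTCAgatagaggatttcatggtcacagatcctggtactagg
Timp1: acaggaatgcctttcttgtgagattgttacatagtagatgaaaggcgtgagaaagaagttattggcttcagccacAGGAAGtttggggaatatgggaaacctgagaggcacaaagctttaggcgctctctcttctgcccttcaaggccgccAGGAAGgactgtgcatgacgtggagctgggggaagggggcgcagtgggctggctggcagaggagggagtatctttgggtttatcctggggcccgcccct
AP-1 occurred 44 bases before the Mmp12 start 2, and PEA3 87 bases before start 1. Timp1 held PEA3 at 175 and at 99 bases before its start and no AP-1 match. Of 32851 mouse windows of this length 6.75% held AP-1, 29.5% PEA3 and 12.4% the TATA box. Windows of Mmp2, Mmp9 and Mmp19 were not used here. AP-1 also occurred in those of Mmp3 and Mmp13, which did not pass the test. No match to one motif overlapped a match to another in these windows. A match is a run of letters and not a measured binding site.

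The gelatinases Mmp2 and Mmp9 cut type IV collagen and denatured collagen. Mmp2 read -0.52, -0.27 and -0.13 in exposed lungs and -0.97, -0.65 and -0.57 in controls, with every exposed lung above every control. The difference of 0.39 ± 0.08 (SE), 1.31-fold, had an adjusted p of 0.0592 (limma; exact permutation p = 0.00117), which missed the threshold. It passed without exposed mouse 12 (0.42, adjusted p = 0.0358, limma) and with the slide as a random block (0.37, adjusted p = 0.039, limma). It also passed among probes well above background (0.39, adjusted p = 0.0446, limma), but not with the slide as a fixed block (0.34, adjusted p = 0.106, limma). Of 23 alternative settings 3 passed and 20 did not. Those that did not included the authors' table (0.38, adjusted p = 0.0868, limma) and the scanner software's processed signals (0.39, adjusted p = 0.238, limma). Within slides the Mmp2 difference was 0.5, 0.06 and 0.36. Groups that do not overlap with exposed above control were found for 3 of 10 members at their brightest probe, against 0.362% of all probes.

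Mmp9 is stored by neutrophils and also made by macrophages and epithelium. Its probe 1 read -1.65, -1.09 and -0.7 in exposed lungs and -1.42, -0.89 and -0.4 in controls, so the groups overlapped (-0.24 ± 0.17, SE; adjusted p = 0.797, limma). Probe 2 is printed in 10 spots, whose SD on an array was 0.04 to 0.12 in the lung, well under the SD between mice of 0.27 and 0.32. It gave -0.27 ± 0.14 (adjusted p = 0.738, limma).

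The collagenases Mmp8 and Mmp13 open fibrillar collagen, and Mmp8 is known as the neutrophil enzyme. Mmp8 read 1.08, 1.28 and 1.48 in exposed and 0.63, 1.03 and 1.5 in control lungs. The means differed by 0.24 ± 0.12 (SE; adjusted p = 0.722, limma) with overlap. The reference signal of Mmp8 was not well above background on any lung array, and other settings put the difference at -0.17 to 0.44. Mmp13 read -1.5, -1.39 and -1.24 in exposed and -1.72, -1.38 and -1.09 in control lungs, with a mean of -1.37 in both groups. The 95% interval of the difference ran from -0.19 to 0.2. In 1 control lung the signal of Mmp13 did not clear background.

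Mmp3, a stromelysin that cuts many matrix proteins and can activate other Mmps, read -0.33, 0.06 and 0.34 in exposed and -0.53, 0.03 and 0.38 in control lungs. The groups overlapped over nearly their whole range, and the difference was 0.03 with an interval from -0.26 to 0.32. Mmp14, a membrane-bound enzyme known to activate the Mmp2 precursor, differed by 0.03 and 0.1 at its probes (intervals -0.14 to 0.21 and -0.09 to 0.3). Control mouse 34 had no usable spot for Mmp14 probe 1. Mmp19 read -0.46 to -0.14 in exposed and -0.75 to -0.21 in control lungs (0.19 ± 0.08, SE; adjusted p = 0.675, limma). It passed in 1 of 23 alternative settings, with Cy5 alone (0.25, adjusted p = 0.012, limma). Timp3, the inhibitor that binds to the matrix and also blocks Adam17, read 1.77, 1.97 and 2.19 in exposed and 1.84, 1.9 and 2.18 in control lungs, and 1 control array had no usable spot. Its difference was -0.01 with an interval from -0.18 to 0.16.

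In the liver the exposed and control groups of all 10 members overlapped. The differences at the brightest probe ran from -0.12 for Mmp3 to 0.03 for Mmp14, and no probe of a member had an unadjusted p under 0.05, against 2.53% of all probes (1039 of 41143). Mmp12 was not well above background on any of the 15 liver arrays, so no fold is given there. Timp1 probe 1 read -3.23, -2.82 and -2.63 in exposed and -3.15, -2.92 and -2.68 in control livers, a difference of 0 ± 0.09 (SE; adjusted p = 1, limma). Mmp2 read -1.58, -1.51 and -1.3 in the 6 exposed livers with a usable spot and -1.63, -1.38 and -1.21 in the 8 controls, a difference of -0.09 ± 0.07. Mmp3 read -3.98 to -3.72 in exposed and -3.87 to -3.49 in control livers, with a signal well above background on 2 of 7 exposed livers and on 4 of the 7 controls with a usable spot. Mmp8 was above background on 1 of the 15 arrays. Among the collagenases, Mmp13 read -1.59 to -0.9 and -1.55 to -1.03 in exposed and control livers. The gelatinase Mmp9 read -2.05 to -1.65 and -2.06 to -1.53 at probe 1. For Mmp14 the liver values were -1.98 to -1.1 and -1.75 to -1.34 at probe 1, and for Mmp19 0.77 to 1.15 and 0.5 to 1.18. Timp3 read -2.35 to -1.89 and -2.47 to -1.57, a difference of -0.07 with an interval from -0.33 to 0.2, the widest among the brightest probes.

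**Figure D2:**
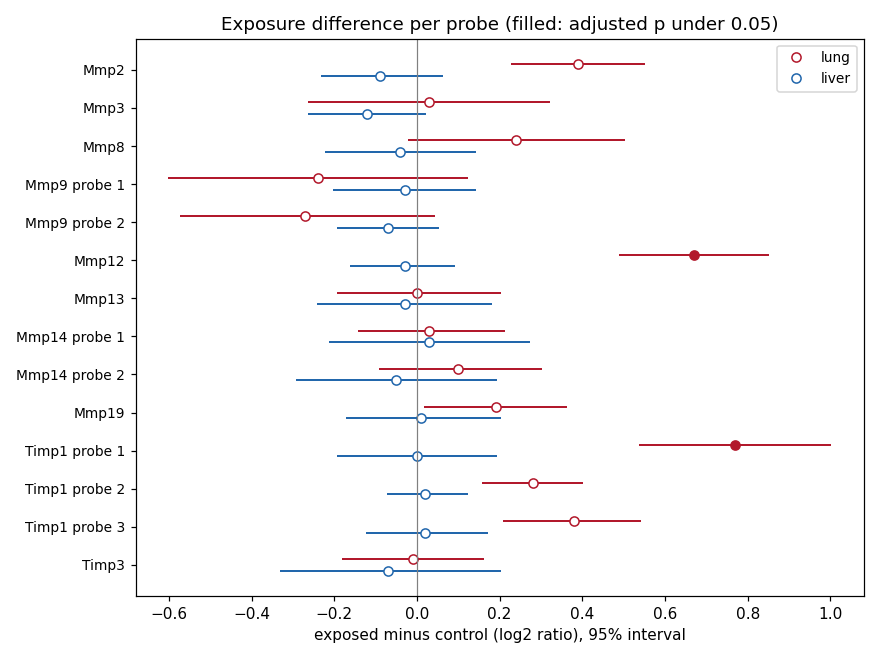
Exposed minus control in log2 ratio (horizontal axis) for each of the 14 probes, with 95% intervals from the limma fit, in lung (red) and liver (blue). Filled points passed an adjusted p of 0.05, and only Mmp12 and Timp1 probe 1 in the lung are filled.

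The 2 tissues were also compared for the effect itself. The lung effect of Mmp12 exceeded that in the liver by 0.7 ± 0.1 (SE; adjusted p = 0.000697, limma interaction). The Mmp12 probe was not well above background in control lungs or in either liver group, so the size of this difference is not exact. The lung effect of Timp1 at probe 1 exceeded that in the liver by 0.77 ± 0.15 (adjusted p = 0.0146, limma). Its probes 2 and 3 gave 0.26 (adjusted p = 0.361, limma) and 0.35 (adjusted p = 0.538, limma) and did not pass. By their brightest probe Mmp12 and Timp1, 2 of 10 members, stood against 0.141% of all probes. For Mmp2 the difference was 0.48 ± 0.1 with an adjusted p of 0.0639 (limma), and it passed when the pairing of lung and liver by mouse was used, at 0.48 with the mouse as a random block (adjusted p = 0.0454, limma) and 0.47 as a fixed block in the 12 mice with both tissues (adjusted p = 0.028, limma). Lung and liver arrays were on different slides and read with different software versions, so part of any difference between tissues cannot be told apart from these.

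**Figure D3:**
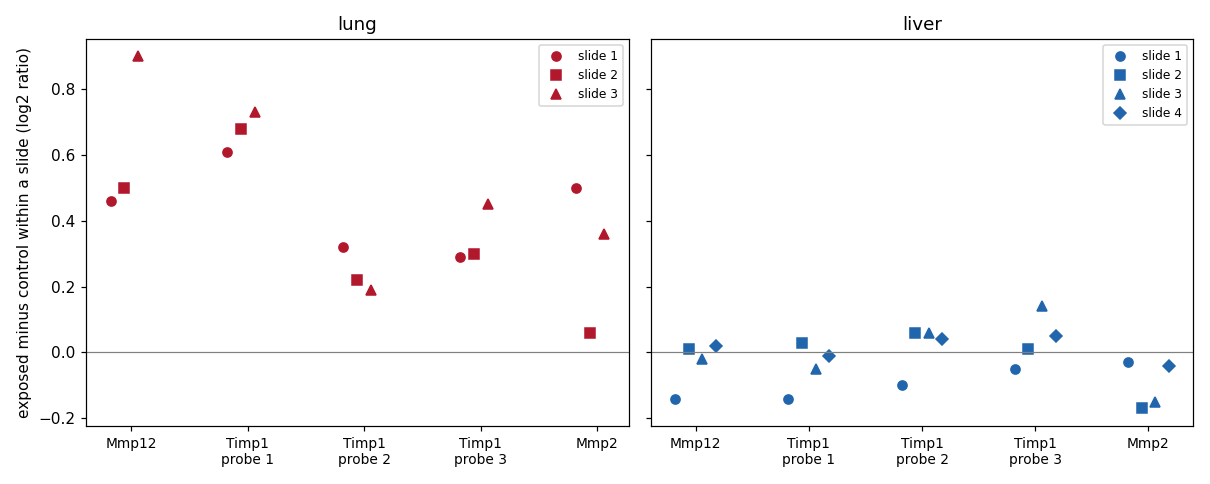
Exposed minus control in log2 ratio (vertical axis), computed inside each slide that held both groups, with 1 symbol per slide, for Mmp12, the Timp1 probes and Mmp2 in lung (left, 3 slides) and liver (right, 4 slides). In lung every slide lies above 0, with Timp1 probe 1 between 0.61 and 0.73, and in liver the points lie on both sides of 0 except for Mmp2, which lies between -0.17 and -0.03.

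Between the control tissues 5 members were higher in the lung (Timp3, Mmp3, Mmp8, Mmp9 and Mmp2) and Mmp19 was lower, where 57.8% of all probes passed, 29.3% higher and 28.5% lower. A further 2 members, Mmp14 and Timp1, passed at their brightest probe, but their probes disagreed in sign. Timp3 was 16.3-fold higher in lung (log2 difference 4.03 ± 0.14, SE; adjusted p = 1.24e-12, limma), reading 1.84 to 2.18 in lung and -2.47 to -1.57 in liver. Mmp3 was higher by 3.75 ± 0.12 on the log2 scale (adjusted p = 1.55e-13, limma), but its signal was well above background on only 4 of the 7 control livers with a usable spot, and other settings put the difference at 2.92 to 6.03. Mmp8 was higher by 1.03 ± 0.13 (adjusted p = 2.89e-06, limma), with a signal well above background on 1 of 8 control livers and with the reference channel not well above background on any array. Other settings put that difference at 0.92 to 3.91, so no fold is given for these 2 genes. Mmp2 was 1.6-fold higher. Mmp9 probe 1 was higher by 0.96 ± 0.13 (adjusted p = 7.86e-06, limma), with a signal well above background on 6 of 8 control livers. Other settings put the Mmp9 difference at 0.59 to 2.09, and in 1 of them it did not pass (adjusted p = 0.134, limma). No fold is given for Mmp9 either. Mmp19 ran the other way, 2.6-fold lower in lung (-0.75 to -0.21 in lung, 0.5 to 1.18 in liver). Mmp14 gave 0.5 at probe 1 and -0.28 at probe 2, and Timp1 gave 0.48, -0.17 and 0.06 at probes 1 to 3, so no direction is given for either gene. Mmp13 differed by -0.17 (adjusted p = 0.157, limma), and by -0.24 with the mouse as a fixed block (adjusted p = 0.0139, limma).

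**Figure D4:**
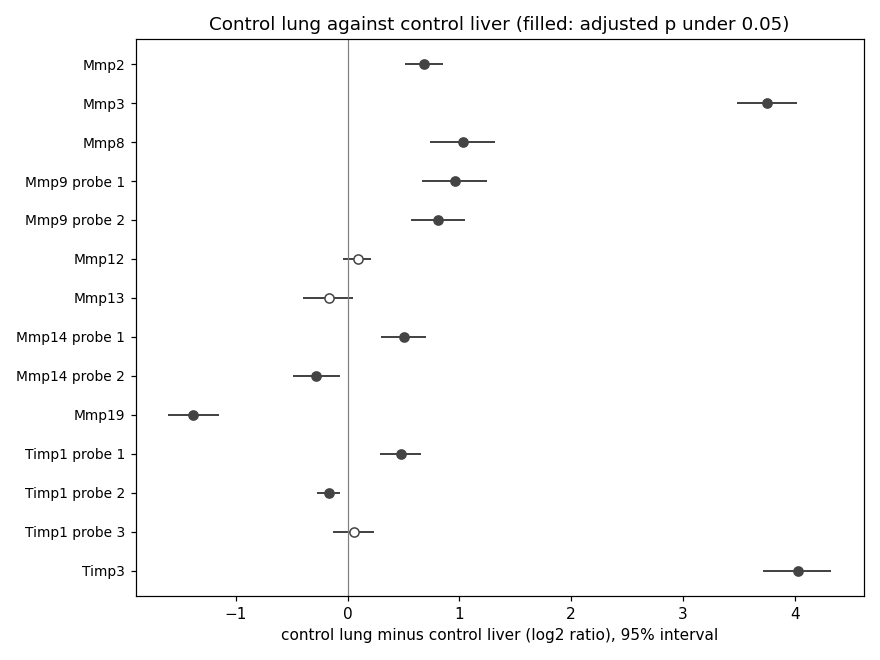
Control lung minus control liver in log2 ratio (horizontal axis) for each probe, with 95% intervals from limma. Filled points passed an adjusted p of 0.05, with Timp3 at 4.03 and Mmp3 at 3.75 farthest to the lung side and Mmp19 at -1.38 on the liver side.

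Other genes of the pathway are given as counts, against the 0.202% of all probes that passed in the lung, each gene by its brightest probe. None of 16 further Mmps, Timps and Reck passed (median 0.03), none of 10 genes of Mmp activation and the plasminogen system (median 0.04), and none of 14 Adam and Adamts proteases (median -0.01), where the median over all probes was 0. Among 9 cysteine and serine proteases of the matrix 1 passed, Ctsk (cathepsin K, a strong collagenase and elastase), up 0.96 ± 0.11 (SE; adjusted p = 0.000685, limma). Among 15 matrix substrates Spp1 (osteopontin) rose by 0.66 ± 0.12 (adjusted p = 0.0482, limma) and the rest did not pass. In the liver no gene of these lists passed.

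Cell type markers were read beside these results. Between control tissues 9 of 9 hepatocyte markers were lower in lung, and 7 of 9 tested lung epithelium markers higher and 1 lower. On each array a list was averaged over those of its genes that had a usable spot on every array of the tissue. The macrophage mean (11 genes) spanned 1.27 to 1.45 in exposed and 0.97 to 1.37 in control lungs. Of all 14 macrophage genes, by their brightest probe, 5 rose (Trem2 0.84, Ctsk 0.96, Marco 0.57, Msr1 0.52 and Gpnmb 0.48), Siglecf, which alveolar macrophages and eosinophils carry, fell by 0.7, and 8 did not pass. The other probe of Gpnmb gave 0, and Ctsk is also among the proteases above. The neutrophil mean (10 genes) spanned 0.57 to 1.23 in exposed and 0.56 to 1.35 in control lungs. Of all 12 neutrophil genes 1 passed, Lcn2 (lipocalin 2, which epithelium also makes), up 1.71 ± 0.07 (adjusted p = 2.16e-08, limma), and Ela2 was not well above background on any lung array. Only 3 of the 12 had differences above 0, and the median difference was -0.08. The fibroblast and mesenchymal mean (6 genes) spanned -0.25 to 0.26 and -0.22 to 0.04. None of all 9 such genes passed, with 8 above 0 in exposed minus control and a median difference of 0.11. Among 9 tested lung epithelium genes Foxj1, a factor of ciliated cells, rose by 0.29 ± 0.05 (adjusted p = 0.037, limma), while the other 8 did not pass and had differences below 0. No hepatocyte or heart muscle gene passed. The 9 hepatocyte genes all had differences above 0 (median 0.8), with means (7 genes) of 1.21 to 2.78 in exposed and 0.98 to 1.56 in control lungs. The 8 heart muscle genes also all had differences above 0 (median 0.46), with means (7 genes) of 2.49 to 3.9 and 1.07 to 3.75. The part of any of these in the results on Mmp12, Timp1 and Mmp2 was not tested. In whole tissue, fewer cells of a type and less RNA per cell cannot be told apart.

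Across the 13 lung arrays, after taking out the group means, Mmp8 and Mmp9 varied together (r = 0.8), as did Mmp13 and Mmp19 (r = 0.87), while Mmp12 and Timp1 did so weakly (r = 0.29). These are descriptions over arrays that share slides and reference. The genes most like Mmp12 in this respect were 1700008P20Rik, Sectm1, Ern2, Acot11 and LOC624219 (r = 0.81 to 0.86), and those most like Timp1 were Rhbdf2, LOC193676, Npb, Elavl4 and Usp25 (r = 0.82 to 0.9), the highest of 10708 genes each. They were picked as the highest, so their r values do not test a link. None of these 10 genes passed the exposure test.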

How the data were processed

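RNA from lung and liver was hybridised by the authors with a universal reference on 28 Agilent two-colour 44K arrays and scanned with Agilent Feature Extraction. The deposited scanner files give Cy5 and Cy3 intensity per spot, not normalized. The authors' deposited table gives log2 ratios, with column medians of -0.043 to -0.023. These followed the scanner ratios, loess-normalized here without background correction, at r = 0.993 to 0.997. Per the study's methods the authors applied LOWESS and MAANOVA and left out outlier arrays. The microRNA arrays were not used here.

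Background was removed by normexp from the median intensity of each spot (offset 50), its model fitted without spots the software marked as outliers, and loess-normalized within each array. Control and marked spots (2.457 to 4.721% per array) were left out and spots of a probe averaged. Differences were fitted with limma 3.58.1 in R 4.3.3, with Benjamini-Hochberg adjustment over all probes and a threshold of 0.05, and the fit was tested on simulated data. Where a gene has several probes, the brightest in Cy5 comes first. Other genes are named where they passed, and likeness is the 5 highest correlations. Members and lists were chosen with earlier results of these data known. Lung and liver were paired by mouse number in the labels. Deviations of the same mouse correlated at -0.07 to 0.22 over 12 mice (median 0.07). Alternatives covered background, normalization, filter, Cy5 alone, slide and mouse blocks, left-out arrays and the authors' table. The number of arrays limits precision.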

Additional observations from a re-analysis of the deposited data

Results flagged for a closer look

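The exposure effects of Mmp12 and of Timp1 at probe 1 differed between lung and liver, by 0.7 and 0.77 on the log2 scale in the limma interaction. Timp1 probes 2 and 3 gave 0.26 and 0.35 and did not pass. For Mmp12 the control lungs and both liver groups were not well above background, so its 0.7 is not an exact size. The arrays of each tissue were on their own slides.

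Of 40 groups of arrays examined (10 genes in 4 groups), 3 held an array far from the rest, where chance gives about 1 in 20 groups. Timp1 probe 1 read -1.1 in exposed lung of mouse 20, with the next array at -1.63. Mmp8 read 0.51 in control liver of mouse 32, with the next at 0.05. The neutrophil marker list (7 genes) averaged 1.18 in that liver and -0.06 to 0.05 in the other 7 control livers, and the exposure difference of Mmp8 in liver was 0.03 without it and -0.04 with it. Mmp13 read -1.55 in control liver of mouse 45, with the next at -1.26.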

How the results depend on the processing

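The count of members that passed stayed at 2 or 3 of 10 in the lung when any 1 array was left out and under all other settings except 2. It was 1 with normexp on all spots, where 14 probes passed in all, and 0 with median centering, where 4 did, against 83. It was 0 in the liver throughout. For the lung effect beyond the liver effect the count was 2 or 3, but 1 with normexp on all spots and 1 with median centering. There 6 and 12 probes passed against 58, and 34 did with the software's processed signals. With the slide as a random block 133 probes passed in lung. Using the pairing, the mouse as a random or a fixed block gave 3 members for the lung effect beyond the liver effect and 8 or 9 between control tissues, and changed no call other than those of Mmp2 and Mmp13 given with the results. Between control tissues the count ran from 6 to 10. The cause was not tested.

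Differences that changed sign were not called, except Timp1 between tissues. In lung exposure they were, without background correction, Mmp13 at -0.02, with normexp on all spots Mmp3 at -0.02, Mmp8 at -0.17 and Mmp9 at 0.02, with median centering Timp3 at 0, in the authors' table Mmp13 at -0.04, and with Cy5 alone Mmp14 at -0.13. In liver exposure they were Timp1 at 0 without background correction, 0.01 in the authors' table and 0.06 with 1 value per gene, where Mmp14 was at -0.01. Mmp19 was at -0.01 with processed signals. With median centering Mmp2 was at 0.08, Mmp9 at 0.07, Mmp13 at 0.03, Timp1 at 0.18 and Timp3 at 0.11. With Cy5 alone Mmp13 was at 0.04, Mmp14 at -0.01 and Timp3 at 0.08, and with the slide as a fixed block Mmp9 was at 0. For the lung effect beyond the liver effect, normexp on all spots gave Mmp8 -0.11, Mmp9 0.47, Mmp14 -0.04 and Mmp19 -0.05. Median centering gave Timp3 -0.11, the authors' table Mmp13 0, Cy5 alone Mmp14 -0.14 and Timp3 -0.12, and the mouse as a fixed block Timp3 -0.15. Between control tissues Cy5 alone gave Mmp13 0.02 and Timp1 -0.27, the latter past the threshold.

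Leaving out 1 array moved lung exposure across 0 for Mmp3 (-0.08 to 0.1), Mmp13 (-0.07 to 0.06), Mmp14 (-0.03 to 0.09) and Timp3 (-0.04 to 0.04), and liver exposure for Mmp8 (-0.08 to 0.03), Mmp9 (-0.06 to 0.02), Mmp12 (-0.06 to 0), Mmp13 (-0.08 to 0.03), Mmp14 (-0.04 to 0.11), Mmp19 (-0.04 to 0.06), Timp1 (-0.05 to 0.05) and Timp3 (-0.14 to 0.01). Mmp12 and Timp1 in lung kept their direction in all of these, at 0.59 to 0.7 and 0.68 to 0.8.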
